A study of Homo sapiens with 8 samples.

Results

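A set of 642 open chromatin sites was described that had a peak in all 4 ATAC-seq libraries from a stiff matrix and in none of the 4 libraries from a soft matrix. The cells were LX-2, a human hepatic stellate cell line that was immortalised, seeded on polyacrylamide hydrogels coated with fibronectin. The groups were D2 soft and D4 soft, on a gel of about 2 kPa for 2 or 4 days, and D2 stiff and D4 stiff, on a gel of about 40 kPa for the same times, with 2 replicate libraries in each. All groups shared the cell line and the coating, no allele or drug was varied, and a single immortalised line stands in for stellate cells of the liver. The study describes its sequencing replicates as biological, and the labels do not say for each library which culture it came from. Overlapping peaks of the 8 lists were merged into 102366 regions, of which 75501 had peaks from at least 2 libraries and are called consensus sites. The 642 stiff-only sites were 0.85% of these, and the opposite pattern, a peak in every soft and no stiff library, was found 13 times. The opposite pattern asks for a peak in D2 soft replicate 1, the shortest list with 29789 peaks, so the 2 counts are not on equal terms. The part of list length in them was not tested. The 642 sites were chosen by the presence of peaks in these same lists. Their absence from the soft lists is therefore not a result and was not tested.

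ATAC-seq marks open chromatin by the places where a transposase can insert adapters. Sites away from gene starts are often enhancers, short stretches that bind transcription factors and act on genes nearby or far away. In stellate cells, the pericytes of the liver sinusoid, activation to a matrix-producing myofibroblast is accompanied by the use of enhancers bound by AP-1, the dimers of JUN and FOS proteins that respond to growth and stress signals. TEAD factors bind DNA for YAP and TAZ, coactivators that move to the nucleus when cells spread on a rigid support. A peak in bulk cells cannot tell a site open in fewer cells from one open more rarely in each cell.

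The libraries were first checked against markers of cell type. Of 12 stellate and myofibroblast genes, 6 (COL1A1, ACTA2, PDGFRB, VIM, TAGLN and RGS5) had a peak within 1 kb of a transcription start in all 8 libraries, and COL3A1, DCN, LRAT and DES had none in any. None of 5 hepatocyte genes had one in all 8, and ALB, APOA1, HNF4A and CYP3A4 had none. COL1A2 had one in 6 libraries, THY1 in 5 and TTR, the fifth hepatocyte gene, in 2. Among markers of other cells CD68 was open in all 8, KDR in 7 and EPCAM and CSF1R in 6 each, whereas CD163, PTPRC, CDH5, VWF, KRT19 and KRT7 were open in none. The part of other cell types in the stiff-only pattern was not tested. The lists held from 29789 to 63272 peaks in the soft and from 59277 to 72840 in the stiff libraries. Depth estimated from the lists was 0.780 to 2.72 fragments per kb of genome in the soft and 2.19 to 3.15 in the stiff libraries, the lowest being D2 soft replicate 1. The part of depth in the stiff-only pattern was not tested.

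Sequences at 5 stiff-only sites are shown because they carry the motifs counted further on. They are among the best ranked ones with a motif among all the sites, among those at a transcription start and among those that kept the pattern with lists of equal length, with summit bases that occur once in the genome. Each run holds the 100 bases on either side of the summit of the best ranked peak, on the plus strand of hg19 (GRCh37), with the motifs searched in capitals.
Site in LINC02112, chr5:9851668-9851868: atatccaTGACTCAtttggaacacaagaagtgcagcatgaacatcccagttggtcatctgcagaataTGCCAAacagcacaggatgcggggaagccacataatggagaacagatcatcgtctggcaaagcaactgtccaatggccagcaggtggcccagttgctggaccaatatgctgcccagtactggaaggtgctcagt
Site in SLCO2B1, chr11:74916026-74916226: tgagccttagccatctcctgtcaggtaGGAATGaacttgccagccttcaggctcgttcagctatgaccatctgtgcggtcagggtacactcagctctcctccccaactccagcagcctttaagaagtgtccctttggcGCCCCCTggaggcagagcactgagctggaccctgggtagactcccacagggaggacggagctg
Site in EHBP1, chr2:63166984-63167184: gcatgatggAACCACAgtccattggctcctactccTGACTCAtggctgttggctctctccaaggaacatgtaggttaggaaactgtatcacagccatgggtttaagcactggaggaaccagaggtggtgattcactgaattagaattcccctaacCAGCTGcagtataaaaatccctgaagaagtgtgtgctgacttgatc
Site at ENSG00000248145, chr5:13143838-13144038: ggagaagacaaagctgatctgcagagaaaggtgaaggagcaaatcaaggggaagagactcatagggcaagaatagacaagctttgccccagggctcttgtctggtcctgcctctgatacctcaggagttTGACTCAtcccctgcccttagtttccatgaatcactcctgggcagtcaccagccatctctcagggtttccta
Site in VRK3, chr19:50491790-50491990: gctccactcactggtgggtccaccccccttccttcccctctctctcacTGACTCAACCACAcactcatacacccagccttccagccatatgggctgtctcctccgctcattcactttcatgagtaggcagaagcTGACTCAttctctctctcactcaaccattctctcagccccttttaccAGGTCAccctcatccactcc
The LINC02112 site held an AP-1 motif (TGACTCA) and, on the other strand, TGCCAA, which is the NFI motif TTGGCA read backwards. In the SLCO2B1 site the TEAD motif GGAATG stood before GCCCCCT, the reverse of the CTCF core AGGGGGC. The VRK3 site held the AP-1 motif at 2 places, the first of them overlapping the RUNX motif AACCACA.

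Strength was read within each list, as the rank of a peak by fold enrichment of its summit over the background of the same library, from 0 for the weakest to 100 for the strongest. Stiff-only sites were weak peaks in all 4 stiff lists. Their median percentile was 28.6 and 32.3 in D2 stiff and 30.1 and 37.2 in D4 stiff, and their median fold enrichment was 5.79 and 6.41 in D2 stiff and 6.04 and 6.63 in D4 stiff. The summit pileup behind these values, recovered from fold enrichment and p-value, had a median of 9 and 11 fragments in D2 stiff and 14 and 13 in D4 stiff. The other 5845 sites with exactly 4 libraries ranked nearly as low, with medians from 26.1 to 32.7 in the stiff lists that held them. By contrast, the 24246 sites found in every library had medians from 73.5 to 76.9 in the same lists, with a fold enrichment of 9.65 to 10.8.

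**Figure D1:**
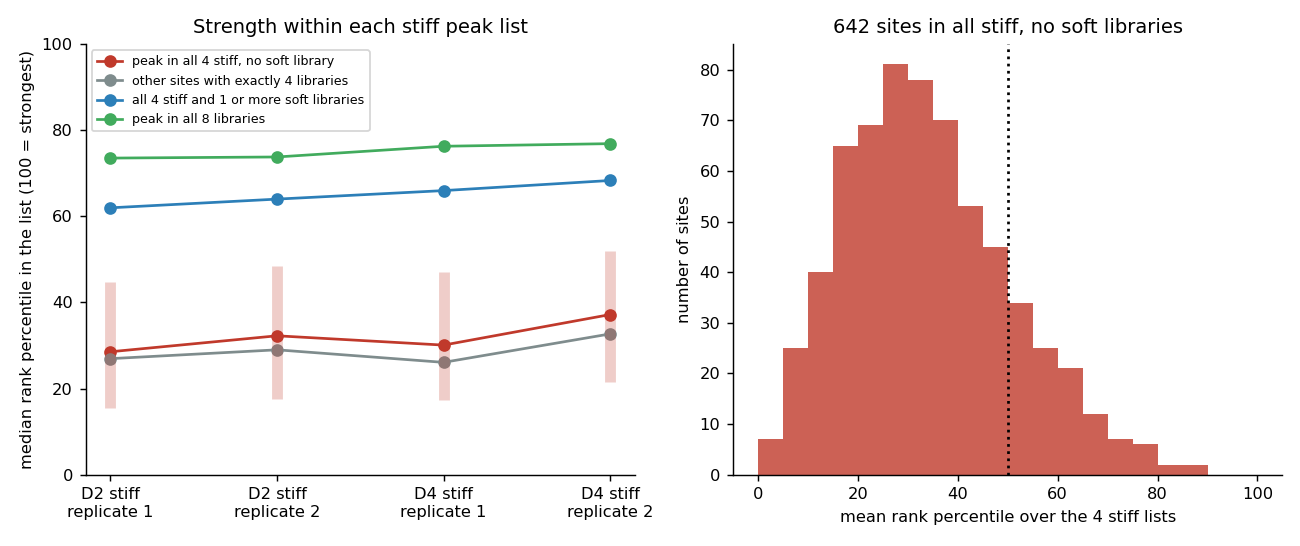
Left, median rank percentile (y axis, 100 for the strongest peak of a list) in each stiff library (x axis) for 4 groups of sites, with pale bars for the quartiles of the stiff-only sites. Right, number of stiff-only sites (y axis) by mean rank percentile over the 4 stiff lists (x axis), with a dotted line at 50. The stiff-only sites lie between medians of 28.6 and 37.2, beside the other sites with 4 libraries, and 109 of the 642 lie above 50.

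The mean percentile over the 4 stiff lists ran from 1.17 to 89.6 with a median of 32.1. It was above 50 at 109 stiff-only sites (16.98%), and 35 sites were above 50 in each of the 4 lists. At the low end, 137 sites had a mean below 20. The order of the sites was only moderately shared between libraries, with a Spearman correlation from 0.474 to 0.557 over the 642 sites for the 6 pairs of stiff libraries, against 0.716 to 0.798 over the other 42846 sites with all 4 stiff libraries. These values are over sites that share libraries and depth, and the narrower range of strength among weak sites was not allowed for. Summits of the 4 libraries lay within a median span of 92 bp at the stiff-only sites and 89 bp at those other sites.

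Peaks were called at q up to 0.05, and most stiff peaks that decided membership were below that limit by far. The lists hold no soft value at these sites, so the distance of the soft signal from the limit is not known. The weakest peak of a stiff-only site had a −log10 q of 4.56 at the median and 1.44 at the lowest, and 11 sites had one under 2. With peaks of q up to 0.01 alone, 631 of the 642 were kept. That limit drops weak soft peaks as well, and 42 other sites entered. Just outside the rule lay 1991 sites with all 4 stiff libraries and 1 soft library, of which 64 were in D2 soft replicate 1, 604 in D2 soft replicate 2, 890 in D4 soft replicate 1 and 433 in D4 soft replicate 2. The median −log10 q of that single soft peak was 2.996, 6.14, 6.16 and 5.09 in the same order. A further 1892 sites had 3 stiff and no soft libraries. When every list was cut to its 29789 strongest peaks by p-value, 107 sites met the rule, and 9 of the 642 were among them. A cut can only remove peaks, so the rest of the 642 were lost through their own stiff peaks. The other 98 of the 107 lay in regions that had a soft peak in the full lists. The part of list length in the pattern was not tested by this. Leaving out single libraries gave 706 to 1530 sites, and these kept 637 to 642 of the original ones, since a library fewer can only relax the rule for an unchanged region. The count rose by more than 1.5 times without D4 soft replicate 1 (1530), D2 stiff replicate 1 (1396), D2 soft replicate 2 (1253), D2 stiff replicate 2 (1127), D4 soft replicate 2 (1071) or D4 stiff replicate 1 (1059).

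**Figure D2:**
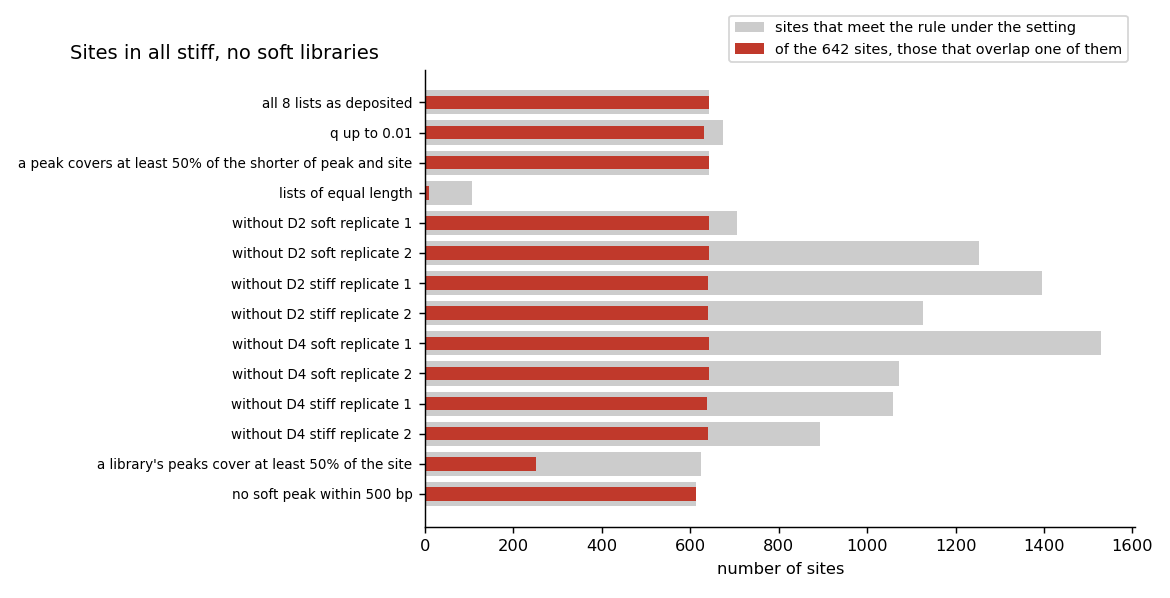
Number of sites (x axis) that meet the rule under each setting (grey bars, y axis) and number of the 642 original sites that overlap them (red bars). With lists of equal length 107 sites meet the rule and 9 of the 642 are kept; without D4 soft replicate 1 the rule gives 1530.

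The 12 best ranked stiff-only sites all lay more than 10 kb from a coding transcription start, and 9 of them more than 10 kb from any soft peak. Their fold enrichment lay between 6.88 and 15.5, with pileups of 9 to 35 fragments. First came chr5:9851675-9851960, in an intron of the noncoding gene LINC02112, whose fold enrichment was 13.5 and 14.5 in D2 stiff and 11.6 and 11.5 in D4 stiff. Both D2 values were above both D4 values there, and the nearest coding gene, the bitter taste receptor TAS2R1, was 221354 bp away. Second was chr11:74915882-74916422, in an exon of SLCO2B1, which encodes an organic anion transporter of the liver. It had a fold enrichment of 13.0 and 14.2 in D2 stiff and 9.60 and 12.3 in D4 stiff. These are also the 2 of the 12 that kept the pattern with lists of equal length.

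An exonic site of GPHN, the gephyrin gene, at chr14:67175983-67176320 had 11.4 in both D2 stiff libraries and 11.5 and 9.82 in D4 stiff. SPATS2L held a site at chr2:201299825-201300449 with 9.23 and 14.1 in D2 stiff and 9.12 and 13.2 in D4 stiff, so that the replicates of each day differed more than the days. CA10, a carbonic anhydrase-related gene, held chr17:49841716-49842189 with 13.0 and 10.7 in D2 stiff and 8.11 and 12.3 in D4 stiff. In ZNF229, a zinc finger gene, the site chr19:44935181-44935678 had 9.40 and 8.39 in D2 stiff and 13.7 and 12.2 in D4 stiff, both D4 values being higher. The site chr10:114423181-114423969, in the vesicle SNARE gene VTI1A, ranged from 9.15 to 11.4 over the 4 libraries.

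CD36, the fatty acid and thrombospondin receptor, was the coding gene nearest to chr7:80340872-80341364, at 65473 bp, where fold enrichment was 10.1 and 8.57 in D2 stiff and 10.98 and 12.8 in D4 stiff. The site chr5:110471600-110472075 near WDR36 varied most among the 12, with 6.88 and 10.7 in D2 stiff and 11.8 and 15.5 in D4 stiff. Sites near PTCHD3 (chr10:27737955-27738311), in DMXL2 (chr15:51826068-51826525) and in IQCM (chr4:150558969-150559896) closed the 12, with ranges of 9.63 to 11.6, 8.80 to 11.6 and 8.37 to 12.9. No library was the highest or the lowest at all 12. The AP-1 motif was found at 4 of the 12 and the TEAD motif at 1.

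**Figure D3:**
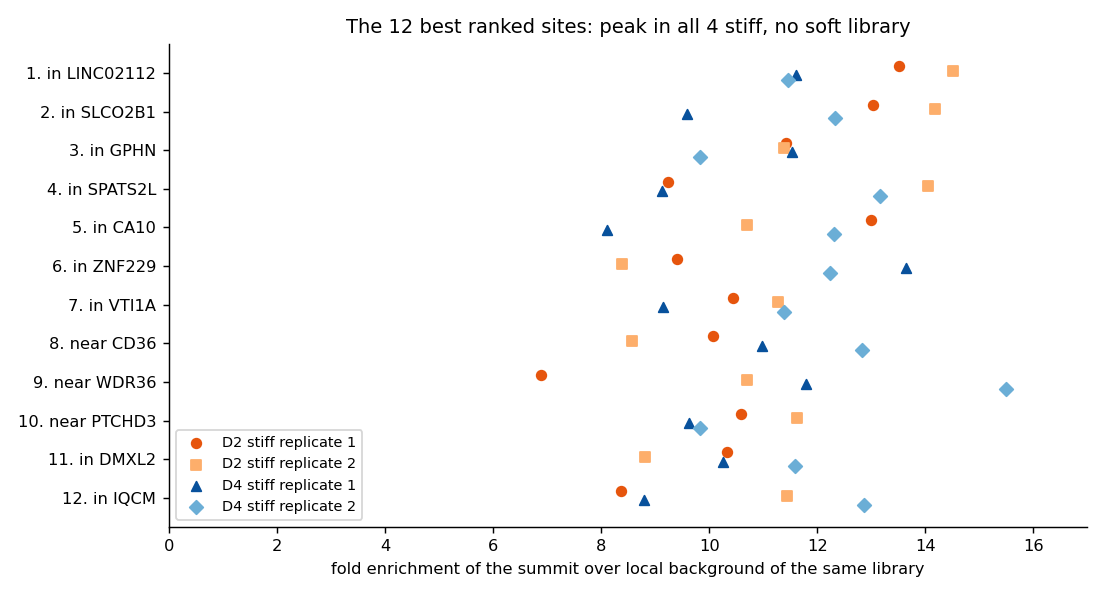
Fold enrichment of the summit over local background (x axis) at the 12 best ranked stiff-only sites (y axis, named by the gene that holds them or the nearest coding gene), 1 point per stiff library. Values lie between 6.88 and 15.5, and the replicates of a day are often as far apart as the days.

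Of the 9 sites kept with lists of equal length, the other ones named here lay at chr22:31451570-31451837 upstream of SMTN, chr17:1090245-1090769 at ABR, chr20:61603719-61604278 near SLC17A9, chr19:50491753-50492202 in VRK3 and chr14:61932789-61933320 in PRKCH. SMTN encodes smoothelin, an actin-binding protein of smooth muscle, and its start was 25591 bp from the site. Fold enrichment there was 8.84 and 11.2 in D2 stiff and 9.28 and 9.29 in D4 stiff. PRKCH, a protein kinase C gene, held the lowest of these, with a mean percentile of 42.6 and fold enrichments from 6.13 to 7.56.

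By position the stiff-only sites were mostly distal. A centre within 1 kb of a transcription start placed 69 of 642 (10.7%, 95% Wilson interval 8.58 to 13.4, counting error only) at a promoter, 43 in other exons (6.70%), 351 in introns (54.7%) and 179 between genes (27.9%). The other sites with exactly 4 libraries were spread alike, with 12.2% at promoters and 52.9% in introns. Sites found in every library had 37.9% at promoters and 37.2% in introns. The median distance to the nearest coding start was 34334 bp, against 38574 bp for the other sites with 4 libraries and 16972 bp for the sites in every library. Within these distances, 51 sites lay up to 1 kb, 108 from 1 to 10 kb, 323 from 10 to 100 kb and 160 (24.9%) farther. The promoter share was 17.9% with a limit of 2.5 kb and 7.94% when only starts of coding genes counted. Stiff-only sites were 550.5 bp wide at the median and the other 4-library sites 554 bp.

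**Figure D4:**
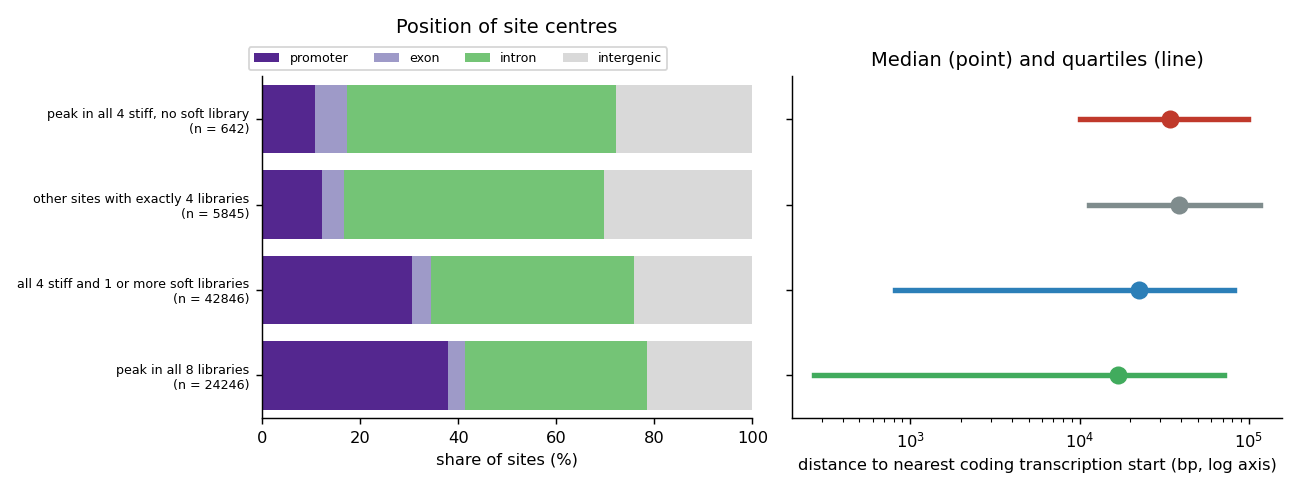
Left, share of sites (x axis, percent) by position for 4 groups of sites (y axis). Right, distance from the nearest coding transcription start (x axis, bp, log scale), as the median (points) and quartiles (lines) for the same groups in the same order. Promoters make up 10.7% of stiff-only sites, 12.2% of other sites with 4 libraries and 37.9% of sites found in every library.

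Most stiff-only sites had a peak of at least 1 of the 4 soft lists within 10 kb. The nearest soft peak was 7187 bp away at the median. It lay within 1 kb at 57 sites and within 10 kb at 402, and 8 sites were more than 100 kb from any. By single library, another peak lay within 10 kb at 183 to 326 sites in the soft and 324 to 365 in the stiff libraries. The same count was not made for other sites. Of the stiff-only sites, 24.5% were within 10 kb of a site open in every library, against 20.9% of the other 4-library sites. For 272 (42.4%) the nearest coding gene had a start with a peak in all 8 libraries, against 45.3% of the other 4-library sites and 66.9% of the sites in every library. The sites were scattered, as 1 neighbouring pair lay within 10 kb, 5679 bp apart near GNB5, and 20 pairs within 100 kb. A soft peak within 500 bp was found for 29 sites, and 613 sites remained without them.

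At coding starts the stiff-only peaks ranked lower still by fold enrichment, and their pileup was not summarised as a group. The 51 sites within 1 kb of one had a median mean percentile of 20.2, 25 of them were below 20, and a soft peak lay within 1 kb at 16. Their GC content had a median of 69.7% and 27 of them held a GC box (GGGCGG), the motif of SP and KLF factors. The strongest was chr17:1090245-1090769, 109 bp inside ABR, with a fold enrichment of 9.39 and 10.3 in D2 stiff and 8.64 and 10.02 in D4 stiff. A peak of a soft list ended 191 bp from it. KAT2A, the histone acetyltransferase GCN5, followed at chr17:40272959-40273530, with 7.76 and 7.60 in D2 stiff and 7.59 and 9.21 in D4 stiff. The site at SIK1, a salt-inducible kinase gene, at chr21:44847117-44847654 held a CRE motif (TGACGTCA), the binding sequence of CREB, and had 7.78 and 7.60 in D2 stiff and 6.16 and 8.45 in D4 stiff.

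Genes of transcription and chromatin with a stiff-only site within 1 kb of a start were KAT2A, TBX6, GLIS1, RORA, GSX2, JUNB, NFIL3, MAML3 and NACC2. JUNB, an AP-1 subunit, had its site at chr19:12902135-12902674, 104 bp from the start, with a mean percentile of 17.4 and a fold enrichment of 5.20 and 4.91 in D2 stiff and 4.46 and 5.13 in D4 stiff. A soft peak lay 776 bp from it, so the locus was not closed in every soft library. The pileup at the JUNB site was 21 and 33 fragments in D2 stiff and 50 and 39 in D4 stiff. In each library that was above the median of the stiff-only sites, although its rank by fold enrichment was low. Enzymes of metabolism and protein glycosylation were DAGLA, MGAT4B, UCK1, FDFT1, CYB5R3, ACOT1 and GALNT16, and CTSF encodes a cathepsin. Channels and transporters were KCNE1, TMC1, CACNB4, ATP2B3 and SLC4A2. Genes of membrane traffic and signalling lipids were STON2, RAB4A, AP2A2, TBC1D21 and PIP5K1C, whose product makes a phosphoinositide at focal adhesions. Polarity and junction genes were LLGL1, PARD6G and CLDN9.

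Among secreted or surface proteins were SPP2, IGFBP4, an IGF-binding protein, RGMB, a BMP coreceptor, NRROS, which binds latent TGF-beta, TSPAN15 and CD3D of the T cell receptor. ABR, SIK1, BOK, HSPB8, CDKN2A, FBXO6, RNF220, THEMIS2, TMEM82, NYNRIN, NKPD1, INSYN1, HECA, NKAIN1 and ENSG00000254979 made up the 51. CDKN2A, the gene of cell cycle inhibitors, had one of the weakest, chr9:21994007-21994418, with fold enrichments of 3.13 to 4.33, and a site open in every library lay within 1 kb of a start of the gene. The lowest ranked of all 642 was at RGMB, chr5:98103930-98105372, at 2.70 to 3.40. This grouping by function was made after the genes were known and nothing was tested on it.

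The remaining 18 promoter sites lay at starts of noncoding genes or pseudogenes alone, with a median mean percentile of 36.3. Those among the 10 best ranked promoter sites were in EHBP1 at a ribosomal pseudogene (chr2:63166868-63167385), at ENSG00000263427 near ALOX15B (chr17:7961062-7961473), at ENSG00000276241 near CCL4 (chr17:34442283-34443119), at ENSG00000248145 (chr5:13143729-13144164), at ENSG00000260971 (chr1:56840241-56840841), at FAM41C (chr1:805040-805457) and in ZNF106 (chr15:42719659-42720400). Their fold enrichments lay between 5.33 and 10.99. The summit bases of the CCL4 site had 2 copies in the genome.

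By nearest coding start, the 642 sites fell to 610 genes, of which 579 had 1 site, 30 had 2 and TNS1 had 3. TNS1 encodes tensin 1, which ties integrins to actin in fibrillar adhesions. Its sites lay in introns of the neighbouring noncoding gene DIRC3, from 312550 to 442820 bp from the TNS1 start. At chr2:218282440-218283291 fold enrichment was 10.8 and 11.4 in D2 stiff and 9.39 and 8.22 in D4 stiff, which ranked 16th. At chr2:218263760-218264367 it was 5.54 and 7.86 in D2 stiff and 7.80 and 6.96 in D4 stiff, and at chr2:218393892-218394775 it was 3.76 and 6.22 in D2 stiff and 6.51 and 6.25 in D4 stiff.

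Genes of 17 lists of matrix, adhesion, signalling and transcription, 938 genes in all, were nearest to 87 stiff-only sites (13.6%). The share was 12.7% of the other 4-library sites, 11.7% of the sites in every library and 12.1% of consensus sites, so that as a whole the lists were met about as often as elsewhere. Of the 87, 18 lay within 10 kb of the start and 26 more than 100 kb away. Nearness assigns a gene and does not show that the site acts on it.

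Integrin and focal adhesion genes were nearest to 8 sites (1.25%, against 0.479% of the other 4-library sites and 0.588% of consensus sites), which were the 3 at TNS1, 2 at the talin gene TLN2 and 1 each at ITGA1, LPP and BCAR1. None of the 8 was within 10 kb. The site in ITGA1, the collagen-binding integrin alpha 1, at chr5:52155513-52155849 held AP-1, TEAD and NFI motifs and had 9.98 and 10.2 in D2 stiff and 5.96 and 10.4 in D4 stiff. Upstream of LPP, a focal adhesion protein, chr3:187851050-187851750 had 7.57 and 8.05 in D2 stiff and 9.88 and 8.41 in D4 stiff. D4 stiff replicate 1 was low at the first and high at the second.

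Actin and contraction genes were nearest to 7 sites (1.09%, against 0.770% of the other 4-library sites), at DAAM2, MYO1E, DAAM1 (2 sites), ABLIM1 and SYNPO among others. DAAM2, a formin that elongates actin filaments, had chr6:39817317-39817983 in an intron 1308 bp from the start, with 8.75 and 7.30 in D2 stiff and 8.98 and 8.37 in D4 stiff. The site in MYO1E, an unconventional myosin, lay at chr15:59621812-59622395, and the better site of DAAM1, also a formin, at chr14:59593630-59594099. They ranged from 5.51 to 7.53 and from 6.04 to 6.66.

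Collagen genes were nearest to 5 sites (0.779%, against 0.274%), at COL4A1, COL15A1, COL11A1, COL8A1 and COL11A2, from 44346 to 236444 bp away. The best ranked was chr13:110722759-110723310 for COL4A1, a basement membrane collagen, with 6.48 and 10.8 in D2 stiff and 6.59 and 7.72 in D4 stiff. In COL15A1 the site chr9:101761102-101761559 ranged from 5.54 to 6.60, and at chr1:103716073-103716430, upstream of COL11A1, the range was 3.71 to 6.59. No site had a gene of the collagens I or III, the main fibrillar collagens of scar, as its nearest.

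Matrix glycoprotein and proteoglycan genes had 4 sites (0.623%, against 0.616%), which were 2 at LAMA3 and 1 each at LAMA5, both laminin chains, and TNC, the gene of tenascin C. LAMA3 held chr18:21282857-21283441, at 6.59 to 8.05, and chr18:21402650-21403124, at 4.00 to 5.60, and chr20:60945163-60945606 lay 3016 bp upstream of LAMA5, at 3.97 to 5.77. Matrix crosslinking and remodelling enzymes had 3 (0.467%, against 0.342%), namely chr5:4570328-4571643 and chr5:4882277-4882783, far from the metalloprotease ADAMTS16, and chr8:42052464-42053332 in PLAT, the tissue plasminogen activator. PLAT had 3.08 to 3.90, near the bottom of every stiff list by fold enrichment. Pileups were 15 to 37 fragments at the PLAT site and 18 to 36 at the LAMA5 site. A site open in every library lay 273 bp from the PLAT site and 319 bp from the LAMA5 site. Cadherin and junction genes had 10 sites (1.56%, against 1.63%), led by CTNNA2, an alpha catenin (chr2:79874994-79875506, 6.29 to 8.84), CDH22 (chr20:44872709-44873263, 6.73 to 8.49) and PKP2, a plakophilin of desmosomes (chr12:33096002-33096771, 5.57 to 7.76), the last with a soft peak 63 bp away.

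Hippo pathway genes and YAP targets had 5 sites (0.779%, against 0.753%), at WWTR1, RBMS3, DLC1, FAT1 and TGFB2. WWTR1 encodes TAZ, and its intronic site chr3:149323609-149324081 had 7.19 and 8.05 in D2 stiff and 6.73 and 8.03 in D4 stiff. RBMS3 held chr3:29928649-29929472 at 4.16 to 9.05, and DLC1 held chr8:13104281-13104938 at 4.94 to 8.57. TGF-beta and BMP genes had 4 (0.623%, against 0.821%). BAMBI, a decoy receptor of TGF-beta, had chr10:28957309-28958088 at 5.78 to 7.94, and ID2, an inhibitor of helix-loop-helix factors, had chr2:7998027-7998381 at 6.05 to 8.05 and chr2:8655413-8655867 at 3.93 to 7.35. JUNB was the only gene of the AP-1 family list (0.156%, against 0.103%).

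Stellate and mesenchymal transcription factors had 13 sites (2.02%, against 2.00%), at ETS2, KLF4 (2 sites), TBX3, KLF5, RARB, GATA6, SOX6, KLF6, RORA, FOXP1, ZEB2 and MEF2D. The site in ETS2 at chr21:40189595-40190217 had 8.17 and 7.60 in D2 stiff and 6.65 and 8.24 in D4 stiff. KLF4, a zinc finger factor, had chr9:110184407-110184930, with 6.64 and 9.53 in D2 stiff and 9.16 and 5.42 in D4 stiff, so that the replicates of each day disagreed. For TBX3 the site chr12:115760084-115760431 lay 638277 bp from the start and ranged from 6.69 to 8.03.

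Growth factor receptors and ligands had 5 sites (0.779%, against 1.11%), with EPHA4 (chr2:221676836-221677350, 6.20 to 7.69), NTRK3 (chr15:88575915-88576345, 5.17 to 6.65) and HBEGF, an EGF receptor ligand (chr5:139717727-139718333, 3.73 to 6.62), in front. Genes of the MAPK cascade had 5 (0.779%, against 0.770%), with SPRY2, a feedback inhibitor (chr13:80850739-80851488, 5.06 to 9.45), MAP3K4 (chr6:161340495-161341223, 6.20 to 9.57) and RASAL2 (chr1:178269188-178269731, 4.95 to 6.29). Wnt genes had 2 (0.312%, against 0.530%), at SFRP5, a secreted inhibitor (chr10:99519072-99519485, 5.68 to 9.70), and LGR5, an R-spondin receptor (chr12:71790964-71791684, 4.61 to 8.24). Of these 12 sites, that in HBEGF alone lay within 10 kb of the start of its gene.

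Cell cycle genes had 3 sites (0.467%, against 0.342%), at E2F2 (chr1:23870434-23871506, 4.32 to 6.30), the cyclin D1 gene CCND1 (chr11:69375274-69375655, 4.41 to 5.54) and CDKN2A. Inflammatory genes had 2 (0.312%, against 0.530%), both nearest to PTGER4, a prostaglandin E2 receptor. The stronger, chr5:40603542-40603857 in TTC33, ranked 13th with 12.6 and 10.6 in D2 stiff and 8.86 and 9.03 in D4 stiff, and the weaker, chr5:40385659-40385975, had 4.82 to 7.52. Mechanosensitive and calcium channel genes had 3 (0.467%, against 0.667%), all calcium channel subunits within 10 kb of the start, CACNA1A (chr19:13740473-13741040, 5.72 to 9.63), CACNA1C (chr12:2081507-2081896, 5.57 to 6.99) and CACNB4 (chr2:152955112-152956197, 3.75 to 5.66).

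Motifs were then counted within 100 bp of the summit, on both strands, as exact letters. The TEAD motif GGAATG was found at 176 stiff-only sites (27.4%, 95% Wilson interval 24.1 to 31.0), against 19.2% of the other 4-library sites, 18.2% of the sites in every library and 19.1% of all consensus sites. The AP-1 motif TGACTCA was found at 178 (27.7%, interval 24.4 to 31.3), against 32.2%, 28.2% and 30.2%. The intervals cover counting of sites only, and no test of these differences was made. Both motifs together occurred at 35 sites (5.45%, against 5.95% of the other 4-library sites) and neither at 323 (50.3%, against 54.5%).

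The share of sites with the TEAD motif differed along 6 neighbouring patterns of presence, picked from those that occurred without a rule set beforehand. It was 12.7% at the 1149 sites with no stiff and at least 2 soft libraries, 16.7% at the 2413 sites with 2 of each, 20.6% at the 4578 with 2 stiff and no soft libraries, 23.7% at the 1892 with 3 stiff and no soft, 24.8% at the 1991 with 4 stiff and 1 soft, and 27.4% at the 642. The AP-1 share showed no such order, with 26.3%, 33.2%, 28.6%, 25.7%, 30.7% and 27.7% over the same patterns. The patterns rest on the same peak lists as the rule, and their order was not tested. Over the 42846 sites with all 4 stiff and at least 1 soft library, the TEAD share was 19.3%. GC content at the summit was nearly the same, with medians between 45.3% and 46.8% over these 6 patterns. Among sites with 40 to 50% GC the TEAD share was 36.98% of 265 stiff-only sites and 21.9% of 2500 other 4-library sites, whereas under 40% GC it was 24.2% and 21.8%. From 50 to 60% GC it was 23.7% and 17.4%, and at 60% or more 10.1% and 8.15%. The AP-1 share at stiff-only and other 4-library sites was 22.2% and 37.6% under 40% GC and 32.8% and 36.9% from 40 to 50%. From 50 to 60% GC it was higher at stiff-only sites, with 35.6% and 29.6%, and at 60% or more it was 10.1% and 10.5%. Strength also differed between the patterns, with a median stiff percentile of 28.2 at sites with 2 of each, 19.9, 25.1 and 35.8 at the next 3 patterns and 32.1 at the stiff-only sites, and its part in the motif shares was not tested. At the 107 sites that met the rule with lists of equal length, the TEAD motif was found at 28.97% and the AP-1 motif at 31.8%. Of these, 98 were not among the 642 and had a soft peak in the full lists, so they are not stiff-only sites there.

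For each motif, window size changed the level of the shares but not which group of sites had the higher share. Within 50 bp of the summit TEAD was found at 17.6% of stiff-only and 11.3% of other 4-library sites, and within 250 bp at 43.9% and 33.7%. AP-1 was found at 19.2% and 22.4% within 50 bp and at 32.4% and 38.3% within 250 bp. The TEAD share was higher at stiff-only than at other 4-library sites in each position, being 15.9% and 11.2% at promoters, 27.9% and 18.3% in exons, 29.1% and 19.8% in introns and 28.5% and 21.6% between genes. AP-1 was lower in each position, though not in each band of GC, with 13.0% and 18.0%, 14.0% and 28.7%, 30.5% and 34.5%, and 31.3% and 34.4%. Where present, the motif centre lay a median of 38 bp from the summit for TEAD and 30 bp for AP-1, against 40 and 32 bp at the other 4-library sites.

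Both shares differed between sets of stiff-only sites split by strength, and this difference was not tested. Split by mean percentile into 3 sets of 214, the stiff-only sites had the TEAD motif at 22.9%, 27.6% and 31.8% from weakest to strongest and the AP-1 motif at 23.8%, 28.5% and 30.8%. Promoters were 17.8% of the weakest set and 7.01% of the strongest, so position moved along with it.

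**Figure D5:**
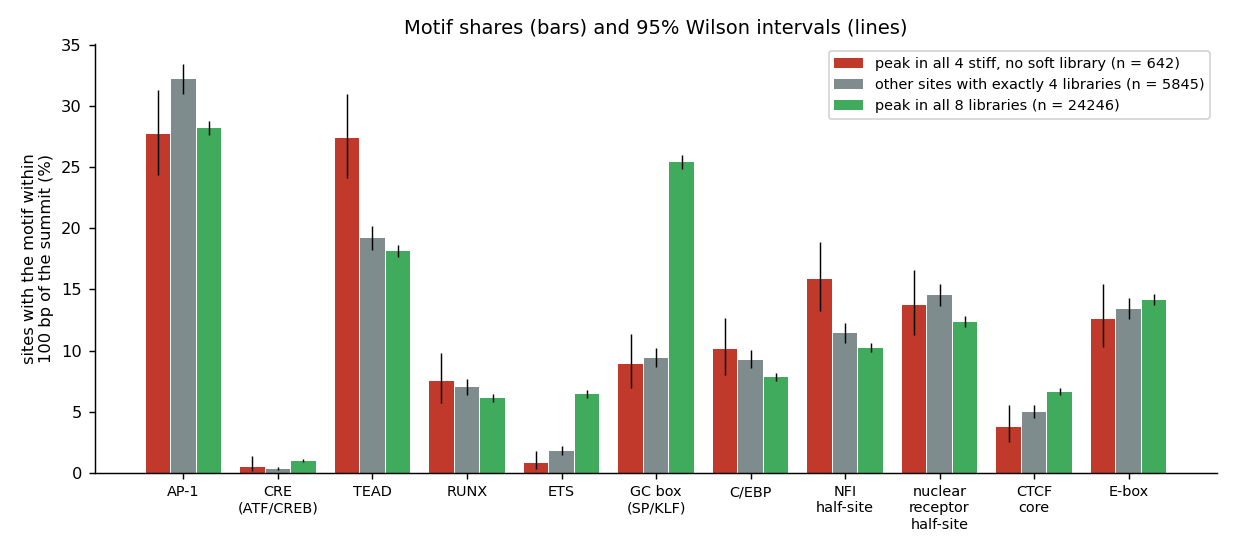
Share of sites with each motif within 100 bp of the summit (y axis, percent; bars) and its 95% Wilson interval (lines) for stiff-only sites, other sites with exactly 4 libraries and sites found in every library (x axis, 11 motifs). TEAD is found at 27.4%, 19.2% and 18.2% of the 3 groups, AP-1 at 27.7%, 32.2% and 28.2%, and the GC box at 8.88%, 9.41% and 25.4%.

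For the other motifs shares are given for stiff-only, other 4-library and all consensus sites in turn. The NFI motif TTGGCA, bound by nuclear factor I, had 15.9%, 11.4% and 11.2%. C/EBP (TTGCNNAA) had 10.1%, 9.26% and 8.79%, RUNX (TGTGGTT) 7.48%, 6.98% and 6.59%, and the nuclear receptor motif AGGTCA 13.7%, 14.5% and 13.5%. The E-box CAGCTG had 12.6%, 13.4% and 13.7%. Lower at stiff-only sites than among all consensus sites were the GC box, with 8.88%, 9.41% and 16.05%, ETS (CCGGAAG), with 0.779%, 1.78% and 3.56%, and the CTCF core, with 3.74%, 4.96% and 5.80%. The CRE motif was at 3 stiff-only sites (0.467%, against 0.308% and 0.597%). None of the 11 motifs was found at 141 sites. A match gives letters in the reference and does not show that a factor was bound. The 24 bases at the summit occurred once in the genome at 94.2% of stiff-only sites, 93.8% of other 4-library sites and 96.6% of the sites in every library.

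Days were compared on the stiff matrix among sites with a peak on both. The rule did not use the difference between days, but it asks for a peak in every stiff list, as do all sites tested, so sites open on 1 day only could not enter and large differences were made less likely. Signal was compared by limma on normal scores of the ranks of fold enrichment over the 43488 sites with all 4 stiff libraries. No site was called at an adjusted p of 0.05 (0 of 43488, 0%; lowest adjusted p 0.456 by limma), and 2945 (6.77%) had an unadjusted p under 0.05. Of the 642 stiff-only sites 0 were called, with a lowest adjusted p of 0.615 by limma, and 51 (7.94%) had an unadjusted p under 0.05. Of those 51, 14 were higher on day 4. When peaks were ranked by −log10 p instead, the unadjusted count was 85 (13.2%, against 6.43% of all sites), 13 of them higher on day 4, and 32.9% of stiff-only sites were higher on day 4 against 50.4% of all, again with 0 called by limma. With replicate 2 of D2 stiff left out 17 of all sites and 0 stiff-only sites were called by limma, where the lone D2 library is assumed to vary like the D4 pair. The ranks were lower on day 4 than on day 2 at the median, by a difference in normal score of -0.10 against -0.02 over all sites, and 41.9% of stiff-only sites were higher on day 4 against 48.6% of all. Without D4 stiff replicate 1 the difference nearly vanished, at -0.03 against -0.02, with 47.8% of stiff-only sites higher on day 4 against 48.6% of all. With any other stiff library left out it was -0.10 to -0.14 at the stiff-only sites. Within the whole lists, by contrast, the median percentile of stiff-only sites was 30.2 in D2 stiff and 34.5 in D4 stiff, with D4 higher at 364 of 642, where the D4 lists were also longer.

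WDR36 was the gene nearest to the only one of the 12 best ranked sites among the 12 stiff-only sites with the lowest p-values between days, with the fold enrichments already given and an adjusted p of 0.678 by limma, so that no difference between days was called there. The lowest p among stiff-only sites, singled out after the values were seen, was at chr1:67628551-67629239, near IL23R, with a fold enrichment of 3.62 and 4.89 in D2 stiff and 9.39 and 7.58 in D4 stiff and an adjusted p of 0.615 by limma. The D2 and D4 values did not overlap there, which the choice of the lowest p made likely, and no difference between days was called.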

How the data were processed

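ATAC-seq peak lists of 8 LX-2 libraries were used, 2 per matrix and day, grouped by the sample labels. Peak names in some lists carry other replicate numbers than the labels, which were followed. The authors trimmed reads with Trim Galore, aligned them to hg19 with Bowtie2 and called peaks per library with MACS2 at q up to 0.05; the submitters' processing notes also name Picard, Bowtie2 2.4.1 and bedtools 2.24.0. Tn5 offsets and MACS2 options are not given in the sources used here. The deposited fold enrichment is a ratio to the background of the same library. The deposited p-values and q-values are given as −log10. The score the authors deposited was not used, and the other deposited column was the summit distance from the peak start. Read counts were not used here, so depth and pileup were recovered from fold enrichment and p-value under the MACS2 model (100% of peaks within 0.001 in −log10 p); depth is the lowest background over the shortest peak.

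Peaks overlapping by at least 1 bp were merged with Python 3.11.15 and pandas 2.3.3. Sites were annotated with GENCODE 44 on GRCh37 (110162 transcription starts of basic transcripts). limma 3.58.1 was run on normal scores of ranks within libraries, with Benjamini-Hochberg adjustment. It was also run on simulated data that held counting noise alone, without further spread between replicates. That run does not show how well changes would be called in these libraries. Intervals are 95% Wilson intervals. Named sites were the 12 best ranked, the 10 best at a transcription start, those of genes with at least 3 sites, up to 3 for each gene list, up to 8 kept with lists of equal length, and any called between days, of which there were 0. Sequences were limited to sites with a single-copy summit after they had been listed. Some list results, named sites and sequences are not reported here. The sites and lists were chosen with earlier results of these data known. Alternatives were a stricter q, lists of equal length, other overlaps, promoter limits and motif windows, other scalings, a replicate block and each library left out.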

Additional observations from a re-analysis of the deposited data

Results flagged for a closer look

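Among 19 sets of 4 values examined, 7 over libraries and 12 over the best ranked sites, 2 had a value far from the other three of its set, where chance flags about 1 in 20. D2 soft replicate 1 had another peak within 10 kb of 183 stiff-only sites, whereas the next lowest soft library had one at 308. That library was also the least deep, at 0.780 fragments per kb, and had the fewest peaks, 29789; their part in the count was not tested. Leaving it out changed the number of stiff-only sites from 642 to 706. At the GPHN site, chr14:67175983-67176320, D4 stiff replicate 2 had a fold enrichment of 9.82, whereas the next lowest stiff library had 11.4.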

How the results depend on the processing

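The number of stiff-only sites moved by more than 1.5 times with lists of equal length (107) and ranged from 706 to 1530 with single libraries left out. It was 673 at q up to 0.01 and, in 2 settings added after seeing the data, 624 where peaks of a library had to cover at least 50% of a site, which kept 250 of the 642, and 613 without sites that had a soft peak within 500 bp. The planned 50% rule on the shorter of peak and site cannot change a merged site and gave 642. With lists of equal length, where 98 of the 107 sites were not among the 642, the promoter share was 14.0%. The AP-1 share was then 31.8% and the median mean percentile 67.9. The promoter share was 17.9% with a 2.5 kb limit, 7.94% with coding starts alone, 15.9% with 50% cover of the site, and 9.82% to 13.6% with single libraries left out. The median mean percentile was 39.6 with 50% cover and 28.1 to 34.2 with single libraries left out. AP-1 shares were 19.2% within 50 bp and 32.4% within 250 bp, TEAD shares 17.6% and 43.9%. With single libraries left out AP-1 lay at 25.1% to 29.4% and TEAD at 24.4% to 28.01%. For D4 stiff against D2 stiff, limma called 0 to 17 sites with single libraries left out, each time leaving 1 day with a lone library whose spread is taken from the other day, and 0 stiff-only sites under every setting run. The replicate block gave 4 sites called and 0 stiff-only sites; the numbers did not pair the libraries (correlation of deviations 0.0089 over 43488 sites, 2 pairs). Of the 12 best ranked sites, 2 kept the pattern with lists of equal length, 4 with 50% cover of the site, and all 12 in the other settings run. The stiff-only peaks rested on a median pileup of 9 to 14 fragments; the part of depth in the counts was not tested.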

Other observations

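By chromosome, the stiff-only sites were spread over all chromosomes but Y. Chromosome 2 held 67 of them (10.4%, against 8.16% of consensus sites), chromosome 5 held 56 (8.72%, against 7.04%) and chromosome 21 held 13 (2.02%, against 1.18%). Shares were lower on chromosome 4, with 20 sites (3.12%, against 5.18%), and chromosome 6, with 28 (4.36%, against 6.31%). Chromosome X held 9 (1.40%, against 2.80%). These chromosomes were named without a rule set beforehand, and nothing was tested on them. Among the genes nearest to 2 sites were KCNMA1, a calcium-activated potassium channel, with chr10:79284166-79284796 and chr10:78539028-78539567, and GFRA1, a receptor of glial cell line-derived neurotrophic factor, with chr10:117614274-117614916 and chr10:117919725-117920290, singled out after their values were seen. Their mean percentiles were 31.1 and 26.1 for KCNMA1 and 51.0 and 39.5 for GFRA1.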
